A study of Mus musculus with 12 samples.

Results

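The baseline methylome of untreated PKD1-Het cells was described from the 3 PBS libraries among the 12 libraries of the study. They are every library whose label gives PBS as the treatment, and the choice was made with earlier results of these data known. PKD1-Het cells are proximal renal tubule epithelial cells isolated from Pkd1flox/-:TSLargeT mice, which carry a null and a loxP-flanked allele of Pkd1, the gene mutated in most autosomal dominant polycystic kidney disease, together with a large T antigen transgene. All 3 libraries came from 500000 cells at passage 3 that received PBS for 24 h, with no Aza, metformin or tolvaptan, and all share the genotype. The cells were cultured, and nothing in the sources says whether the replicates came from separate animals or cultures, so the spread between them may be technical. The 9 treated libraries of the same cells (24 h of Aza at 50 µM by itself, or combined with metformin at 300 µM plus tolvaptan at 10 µM, either unencapsulated or loaded in micelles) appear only in a closing reference.

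DNA methylation in mammals is a methyl group on the cytosine of the dinucleotide CpG. It is copied at replication by Dnmt1, set by Dnmt3a and Dnmt3b and removed through the Tet enzymes. In differentiated cells most isolated CpGs are methylated, whereas clusters of CpGs at gene starts, the CpG islands, are mostly free of it. A methylated CpG-rich promoter is usually associated with a silent gene, and known cases in normal tissue are germline genes, the silent copy of imprinted genes and genes on the inactive X chromosome. Methylation of an active gene's body is common and carries no such association with silence.

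Methylation was read by reduced representation bisulfite sequencing (RRBS). DNA is cut at CCGG by the enzyme MspI, short fragments are retained, and bisulfite converts unmethylated but not methylated cytosines, so that the level of a CpG is the percent of its reads that kept a C. The deposited tables listed CpGs with at least 5 reads. PBS replicates 1, 2 and 3 held 2812197, 1860418 and 3979987 CpGs with 44679655, 29906260 and 65817118 reads over them. Of 5163991 CpGs listed in any of them, 2792836 were in exactly 1 library, 1253699 in exactly 2, and 1117235 in all 3 outside the mitochondrial genome. This shared set, with median depths of 14, 10 and 19 reads, carries the values below unless stated otherwise, each CpG counting equally. Since 10 reads allow only steps of 10 points, levels of single CpGs are coarse and the text rests on means over many. An exact sign-flip test on 3 libraries cannot give a p under 0.25, so differences between classes of CpGs are given per library, with no p.

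The shared set was enriched for the sequence that RRBS favours. Predicted MspI fragments of 40 to 300 bp held 49.2% of shared CpGs but 9.20% of the CpGs of the mm9 genome. CpGs with 16 or more CpGs within 100 bp to either side, themselves included, made up 16.3% of the shared set and 4.33% of the genome, and promoters 28.4% against 9.93%. Means over the set are therefore means over CpG-rich sequence and not over the genome.

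Stretches upstream of gene starts show what the level classes look like in sequence. In each class defined below (unmethylated, between and methylated promoters) the gene was the one, among the genes named by rule, with the most shared CpGs in 300 bp of non-exonic sequence upstream of its start. Pkd1 was added after its values were seen. The sequences are the mm9 reference, each read 5' to 3' on the gene's strand and ending nearest to the start, and CG in capitals marks a CpG measured in all 3 libraries.
Hsp90ab1, chr17:45710222-45710420, minus strand: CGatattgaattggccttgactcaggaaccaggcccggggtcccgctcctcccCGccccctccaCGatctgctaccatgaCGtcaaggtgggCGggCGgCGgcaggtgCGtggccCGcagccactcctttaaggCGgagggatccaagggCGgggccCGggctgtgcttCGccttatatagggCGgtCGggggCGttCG
Lrp2, chr2:69424241-69424538, minus strand: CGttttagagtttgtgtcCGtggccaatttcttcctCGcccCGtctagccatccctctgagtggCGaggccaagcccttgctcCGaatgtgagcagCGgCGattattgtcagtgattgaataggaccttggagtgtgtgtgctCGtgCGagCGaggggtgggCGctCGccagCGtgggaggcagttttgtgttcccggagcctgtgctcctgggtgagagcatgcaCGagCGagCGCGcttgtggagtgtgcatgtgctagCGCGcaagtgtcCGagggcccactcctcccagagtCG
Rasgrf1, chr9:89804116-89804410, plus strand: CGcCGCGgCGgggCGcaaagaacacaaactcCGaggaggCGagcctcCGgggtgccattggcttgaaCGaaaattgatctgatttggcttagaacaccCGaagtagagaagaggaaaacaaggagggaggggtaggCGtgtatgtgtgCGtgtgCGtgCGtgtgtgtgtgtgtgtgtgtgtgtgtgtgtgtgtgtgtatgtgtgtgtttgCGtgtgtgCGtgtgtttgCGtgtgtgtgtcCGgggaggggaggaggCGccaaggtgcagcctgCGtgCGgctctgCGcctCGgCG
Pkd1, chr17:24685528-24685765, plus strand: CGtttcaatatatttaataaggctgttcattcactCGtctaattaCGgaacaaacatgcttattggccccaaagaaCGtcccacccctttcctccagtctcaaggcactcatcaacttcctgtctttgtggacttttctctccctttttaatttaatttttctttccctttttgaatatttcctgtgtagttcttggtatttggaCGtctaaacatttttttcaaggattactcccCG

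At Hsp90ab1, a cytosolic chaperone gene that all cells use, the 17 measured CpGs lay 2 to 200 bp upstream of the start. None of their 527 reads was methylated in any library, which allows a level of up to 0.569%. This limit covers counting error only, since reads of a fragment cover several CpGs and were not marked by molecular identifiers. At Lrp2, which encodes megalin, the endocytic receptor of the proximal tubule brush border, the 22 CpGs averaged 25.2%, 26.1% and 29.1% in replicates 1, 2 and 3. The 6 CpGs from 243 to 272 bp upstream were under 20% in every library, and single CpGs averaged from 3.92% to 54.2% over the 3 libraries. At Rasgrf1, a paternally expressed imprinted gene that encodes a Ras guanine nucleotide exchange factor, the 24 CpGs averaged 84.5%, 87.3% and 78.8%. Of these, 14 were at 70% or more in every library and none was under 10%.

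The Pkd1 stretch lies 1130 to 1367 bp upstream of the start and the level fell along it towards the start. Its CpG farthest from the start, 1367 bp upstream, was at 94.6%, 96.4% and 82.6%. The CpG 1162 bp upstream was at 52.7%, 50% and 55.1%, and the one 1131 bp upstream at 43.2%, 28.8% and 23.4%. Nearer the start no CpG was shared until 500 bp upstream. The 6 CpGs from there to the start were at 0%, 3.57% and 1.67%, and the 29 in the 500 bp downstream of it at 0%, 5.41% and 0.164%. The whole Pkd1 promoter (41 CpGs) therefore averaged 11.4%, 15.3% and 11.1%, a mean of an unmethylated start and a methylated flank, whereas the 46 CpGs of the gene body (chr17:24686895-24733459) averaged 67.0%, 67.4% and 65.2%. In a bulk library a level between 0 and 100% is the share of methylated DNA molecules, and alleles and cells cannot be told apart.

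Most CpGs were either close to unmethylated or close to fully methylated. CpGs under 10% made up 20.5%, 18.2% and 20.7% of the shared set in replicates 1, 2 and 3 (mean 19.8% ± 1.39, SD, n = 3), and CpGs at 90% or more made up 42.3%, 44.5% and 42.7% (43.2% ± 1.21). Only 17.4%, 17.8% and 17.4% of CpGs lay from 20% to under 70%. Replicate 2 held the fewest CpGs under 10% and the most at 90% or more, and replicates 1 and 3 were closer to each other in both. The shares at exactly 0% and 100% fell with depth, whereas the share at 90% or more rose to 49.7% at 20 or more reads. CpGs without any methylated read made up 17.0% on average at 5 or more reads but 8.02% at 20 or more, and fully methylated ones 30.7% and 19.1%, while the share from 20% to under 70% stayed at 17.5% and 17.0%.

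**Figure D1:**
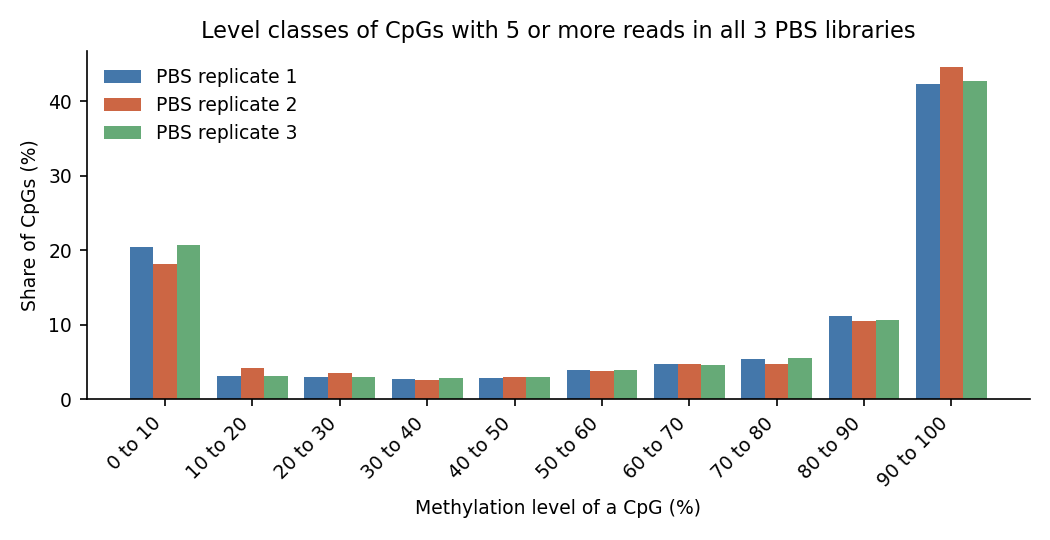
Share of the 1117235 shared CpGs (vertical axis, %) in each class of methylation level of 10 points (horizontal axis, %, each class without its upper bound except the last), as a bar for each PBS library. All 3 libraries have their tallest bars at 90 to 100% (42.3 to 44.5%) and at 0 to 10% (18.2 to 20.7%), and replicate 2 is the lowest of the 3 in the latter.

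The mean level was 63.8%, 65.3% and 63.7% in replicates 1, 2 and 3 (64.3% ± 0.870, SD, n = 3), with a median CpG at 84.5%. Over all CpGs that each library listed, shared or not, the means were 64.6%, 67.9% and 62.0%. Single autosomes lay in a narrow band, from 62.0% on chromosome 11 to 67.8% on chromosome 18, and replicate 2 was the highest library on each.

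Promoters were far lower than the rest of the genome. A promoter CpG lay from 2000 bp upstream to 500 bp downstream of an annotated transcript start, and the other CpGs were called exonic, intronic or intergenic in that order. The 316761 promoter CpGs averaged 35.9%, 38.0% and 35.8%, with 50.1% of them under 10%. The 355540 intergenic CpGs averaged 71.7%, 73.0% and 71.6%, so that promoter minus intergenic level was -35.9, -34.9 and -35.8 points in the 3 libraries (mean -35.5 ± 0.538). The 324618 intronic CpGs averaged 75.7%, 76.9% and 75.7%, and the 118708 exonic CpGs 81.9%, 83.0% and 81.9%. Exons exceeded introns by 6.16 ± 0.072 points and introns exceeded intergenic sequence by 3.98 ± 0.025 points, each in all 3 libraries. The order from promoter to intergenic, intron and exon was the same in every library, and each step exceeded the spread of the libraries.

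Within promoters the level followed position. The 43820 CpGs in the 100 bp upstream of a start were the lowest bin, at 23.8%, 26.3% and 23.7%. Levels passed 50% from 750 to 500 bp upstream (52.3% on average) and from 750 to 1000 bp downstream (53.5%), and reached 78.1% 5000 to 10000 bp upstream and 81.7% 5000 to 10000 bp downstream. Exonic CpGs outside promoters differed by part. Coding sequence averaged 83.0%, 84.1% and 83.0% and the 3' UTR 82.5%, 83.4% and 82.5%, whereas the 2632 CpGs of 5' UTRs outside promoters averaged 54.2%, 55.9% and 54.7%.

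**Figure D2:**
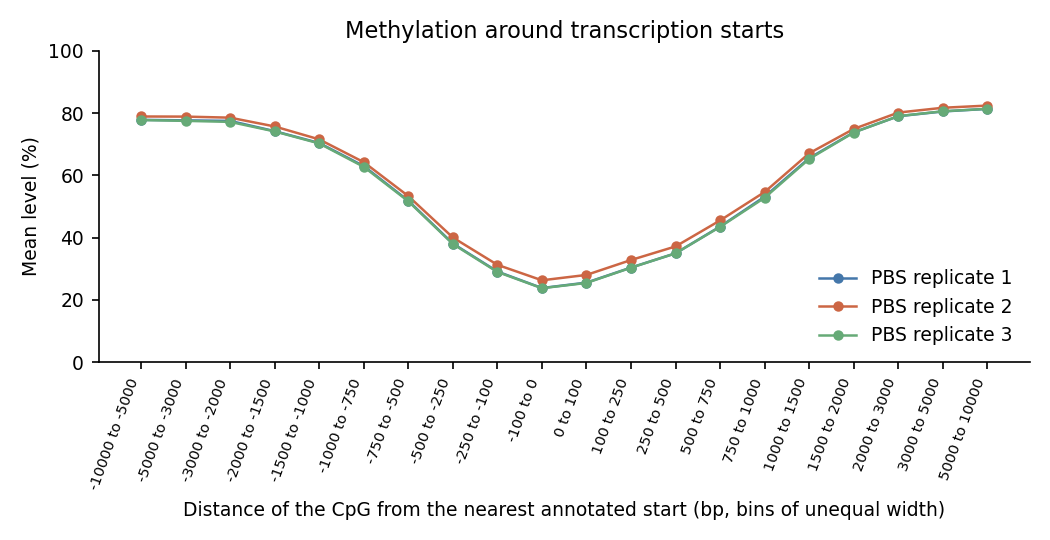
Mean methylation level (vertical axis, %) of shared CpGs by distance from the nearest transcript start (horizontal axis, bp, upstream negative, bins of unequal width), as a line for each PBS library. The lines of replicates 1 and 3 lie on top of each other, with a minimum of 23.8% and 23.7% in the 100 bp upstream of the start, and replicate 2 lies above them in every bin, by 1.05 to 2.52 points.

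Levels differed by CpG density and by annotation. With density they rose from 67.3% where a CpG had no other within 100 bp to 76.4% with 4 to 6 CpGs in that window, and then fell to 71.1%, 50.5% and 31.4% with 7 to 10, 11 to 15 and 16 or more. The densest class minus the sparsest was -36.4, -35.2 and -36.1 points in replicates 1, 2 and 3 (mean -35.9 ± 0.618), and the class of 4 to 6 was 9.13 ± 0.268 points above it. The classes of annotation were farther apart at dense than at sparse CpGs, with promoters at 29.3% and exons at 81.9% at 11 to 15 CpGs. At 16 or more every class was lower than at 11 to 15. Promoters averaged 22.1%, 24.7% and 22.0%, introns 41.1%, 43.4% and 40.7%, intergenic CpGs 55.7% on average, and exons outside promoters 68.7%, 70.5% and 68.5%. Exons thus lay 27.5 ± 0.385 points above introns in the densest class and 4.13 ± 0.235 points above them in the sparsest. Introns and intergenic CpGs changed order: introns were 11.9 ± 0.152 points above intergenic CpGs where a CpG stood alone, and the difference was -14.0 ± 0.308 points at 16 or more. Promoter CpGs that stood alone were at 69.8%, above lone intergenic CpGs at 61.6% and below lone intronic and exonic CpGs at 73.5% and 77.7%.

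**Figure D3:**
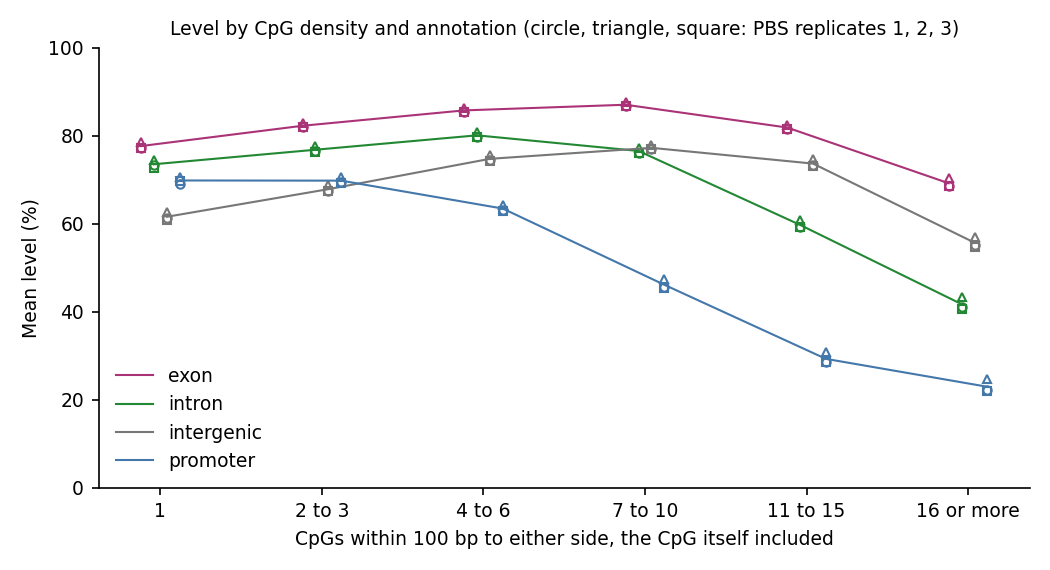
Mean methylation level (vertical axis, %) by the number of CpGs within 100 bp to either side (horizontal axis) for exonic, intronic, intergenic and promoter CpGs; lines join the means of the 3 PBS libraries and symbols are the single libraries. The 4 lines lie between 61.6% and 77.7% at lone CpGs and spread to between 23.0% (promoters) and 69.2% (exons) at the densest CpGs.

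Levels differed with the bases next to a CpG where CpGs were sparse. Among CpGs with at most 3 in the window, those in TCGA had the lowest mean of the 10 tetramers, read without regard to strand, at 62.0%, 63.7% and 62.5%, and those in GCGC the highest at 82.3%, 83.2% and 82.6%. ACGA (65.2%) and CCGC (81.3%) came next on either side. The same held within intergenic sequence, where TCGA averaged 56.5% and GCGC 79.9%. At 16 or more CpGs the 2 tetramers were at 33.0% and 34.2%, and all but CCGG lay between 29.1% and 34.2%. CCGG, the site that MspI cuts, was at 23.7% there. In CCGG replicate 3 was the lowest library, at 67.4% against 68.7% and 69.8% for sparse CpGs.

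Neighbouring CpGs had similar levels over short distances. To avoid reads shared by neighbours, the level of a CpG in 1 library was set against that of its neighbour in another, at 10 or more reads. Pearson's r across pairs was 0.932 at 2 to 10 bp, 0.820 at 100 to 200 bp, 0.660 at 500 to 1000 bp, 0.128 at 2000 to 5000 bp and 0.025 at 5000 to 10000 bp. Pairs in which both CpGs were sparse were less alike at short range (r = 0.703 at 2 to 10 bp, 0.315 at 200 to 500 bp) but more alike at 5000 to 10000 bp (r = 0.161). These values describe pairs, which share CpGs and base composition.

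At the scale of 100 kb, sparse CpGs outside promoters mapped broad differences. Of 2658 windows with at least 20 such CpGs, the median level was 79.5%, 80.7% and 79.1%. In 1116 windows (42.0%) the level was 80% or more in all 3 libraries, and in 69 (2.60%) it was under 50% in all 3. The low windows were spread unevenly, with 19 of 304 on chromosome 5 and 9 of 115 on chromosome 16 but 2 of 284 on chromosome 10. The X had 2 of only 9 windows, with a median of 60.4%. The window levels of different libraries had r from 0.961 to 0.963. Intergenic CpGs over 500000 bp from any start averaged 62.7%, 63.8% and 62.9%, below the 73.6%, 74.8% and 73.6% of those 10000 to 50000 bp away.

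Gene bodies were mostly methylated whatever the state of the promoter. Of 10169 genes with at least 10 shared CpGs between their promoter and their end, the median gene body was at 82.6%, and 51.4% were at 80% or more in all 3 libraries. In genes of at least 20000 bp the level was 57.5% from 0 to 10% of the length, next to the start, 80% from 10 to 20% and 84.9% from 90 to 100%. Genes with an unmethylated promoter had a median body level of 88.9%, against 80.2% for genes with a methylated one. Yet bodies under 50% in all 3 libraries were also more frequent among the former, at 11.6% of 2679 genes against 2.84% of 1162.

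Promoters of single genes fell into 3 classes. Of 26212 annotated genes, 12958 had at least 5 shared CpGs in their promoter. Unmethylated promoters, under 10% in each of the 3 libraries, numbered 5634, which is 43.5% of those measured. Methylated promoters, at 70% or more in each, numbered 2335 or 18%. The remaining 4989 were between. Among them 657, or 5.07% of all, lay from 40 to 60% in each library. The classes followed base composition. Of 9067 promoters of high CpG content (a 500-bp window with an observed to expected CpG ratio over 0.75 and over 55% GC), 54.7% were unmethylated and 9.77% methylated. Of 1069 of low content (every window at or under 0.48), 6.36% were unmethylated and 53.7% methylated. Protein-coding genes had a median promoter at 11.3% and non-coding genes at 46.4%.

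X-linked promoters stood apart. Of 353 measured, 5 (1.42%) were unmethylated, 258 (73.1%) between and 90 (25.5%) methylated. On autosomes 44.7% were unmethylated, 37.5% between and 17.8% methylated. Among the 205 of high CpG content on the X, 4 (1.95%) were unmethylated, against 55.9% of autosomal ones. The X-linked promoters averaged 61.0%, 64.8% and 59.9% in the 3 libraries, and the 12605 autosomal ones 29.5%, 31.7% and 29.4%. Counted over CpGs, promoters on the X were above autosomal ones by 26.8, 29.0 and 26.3 points (27.4 ± 1.46), whereas intergenic CpGs on the X were lower, with differences of -5.19, -5.22 and -5.42 points (-5.28 ± 0.125). In female cells the inactive X is known for methylated CpG islands, but the sex of the cells is not given in the sources used here, and 8 CpGs on the Y chromosome were among the shared CpGs against 27919 on the X.

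The 12 gene lists, chosen with earlier results of these data known, were read against the background of all promoters, of which 43.5% were unmethylated, 38.5% between and 18% methylated, and of those with high CpG content, with 54.7% unmethylated and 9.77% methylated. Housekeeping genes had the lowest median of the lists, 3.76% against 13.2% for all promoters and 5.19% for those with high CpG content. Most of the measured ones have high CpG content. Of 20 listed, 15 were measured, 9 were unmethylated (60%, close to the 54.7% of high-CpG promoters) and none was methylated. B2m, the light chain of MHC class I, was at 0%, 1.96% and 0.558%, and Tubb5, a beta tubulin, at 0%, 0% and 2.08%. The 6 others lay between 12.5% (Tfrc, the transferrin receptor) and 21.3% (Ppia, cyclophilin A), with Actb (beta actin) at 13.7%, 15.4% and 13.8%.

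Genes of the primary cilium, the sensory organelle in which the polycystins reside, had 18 of 30 measured promoters unmethylated (60%, close to the 54.7% of high-CpG promoters) and none methylated. Arl13b, a ciliary small GTPase, was at 0%, 3.66% and 0.528%, and Invs, the inversin gene, at 0.478%, 1.94% and 0%. The highest were Bbs1, a BBSome subunit (49.4%, 50.7% and 48.5%), the X-linked Ofd1 of the centriole (49.7%, 58.8% and 46.1%) and Gli2, a Hedgehog effector (41.8%, 47.2% and 38.3%). Of the genes of polycystic kidney disease and the polycystin family, 18 of 27 were measured, with 10 unmethylated (55.6%, again close to 54.7%) and 1 methylated. Bicc1, an RNA-binding protein gene whose loss gives renal cysts in mice, was at 0.866%, 0% and 1.14%, and Nek8, a ciliary kinase, at 0.488%, 3.04% and 0.300%. The methylated one was Lrp5, a Wnt co-receptor, at 80.1%, 76.1% and 79.6%. The promoters of Pkd2 and Pkhd1, which encode polycystin 2 and fibrocystin, had no shared CpG, and their gene bodies were at 71.3%, 71.9% and 70.4% and at 94.8%, 96.4% and 97.7%.

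Germline genes were all methylated. These genes act in germ or pluripotent cells and are known to be kept silent elsewhere by promoter methylation. The 16 measured of 24 listed were all at 70% or more in each library, where 18% of all promoters were, and none was below 74.9% in any library. Ddx4 (the germ cell helicase Vasa) was at 98.1%, 98.3% and 98.3%, Asz1 at 98.4%, 99.6% and 94.7%, and Zfp42 (the pluripotency factor Rex1) was the lowest at 77.5%, 78.3% and 76.3%.

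Imprinted genes, of which a single parental copy is active, were spread over the whole range. Of 16 measured, 2 were unmethylated (12.5%, against 43.5% of all promoters), 10 between (62.5%, against 38.5%) and 4 methylated (25%, against 18%), with a median of 60.4%. Near the middle were Mest (42.5%, 66.2% and 60.6% over 6 CpGs) and Igf2r, the mannose 6-phosphate and Igf2 receptor (50.1%, 68.9% and 57.4% over 15). None of the 16 stayed within 40 to 60% in all 3 libraries. At the ends were Inpp5f, at 0% in each library over 6 CpGs, and Cdkn1c, the cell cycle inhibitor p57 (98.2%, 100% and 100% over 13). Grb10, a growth factor receptor adaptor, was at 96.0%, 97.8% and 95.5%. Gnas was at 30.9%, 33.8% and 30.2% at the start of its transcript with the longest coding sequence, chr2:174123360. That start lies inside the annotated gene (chr2:174109821-174172245). Every gene was read at a single start, so promoters of its other transcripts are not covered.

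Hox genes and other early developmental regulators divided within families. Of 42 measured, 10 were unmethylated (23.8%, against 43.5% of all promoters), 16 between (38.1%, against 38.5%) and 16 methylated (38.1%, against 18%). Hoxa10 and Hoxd9 were at 0.388% and 1.30% on average, and their gene bodies were also low, at 1.05% and 1.08%, whereas Hoxa11, Hoxa13 and Hoxd11 were at 88.0%, 90.1% and 95.2% on average. Hoxa10, Hoxa11 and Hoxa13 lie next to each other in a single cluster. Of the kidney regulators, Pax2 was at 0.521%, 3.05% and 0.568%. Six2 of the nephron progenitors was at 97.4%, 98.2% and 95.3%, Foxd1 of the stroma progenitors averaged 94.1%, and Wt1 of podocytes and progenitors was at 89.2%, 91.8% and 90.2%.

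Cell identity markers give a mixed account of the label, and methylation does not measure their expression. Of 22 proximal tubule genes only 5 promoters were measured, with 4 methylated, none unmethylated and Lrp2 between at 21.5%, 22.3% and 23.1% over its whole promoter. Pck1 of gluconeogenesis was at 78.0%, 70.6% and 80.7%, the brush border enzyme gene Ggt1 at 78.3%, 87.5% and 86.9%, and Slc22a8 (an organic anion transporter) at 71.5%, 83.4% and 80.6%. All but Lrp2 have promoters of low CpG content, a class in which 53.7% of promoters were methylated. Pax8, a renal lineage factor, was unmethylated at 0%, 1.67% and 4.68%. Of 10 measured genes of other segments and podocytes, 6 were methylated (60%, against 18% of all promoters). Promoters of high, intermediate and low CpG content, all present in this list, were methylated in 9.77%, 31.0% and 53.7% of cases. Among the 6 were Scnn1a (99.6%, 97.0% and 96.2%), a sodium channel subunit of the collecting duct, and Calb1 (98.7%, 96.3% and 98.5%), the calbindin of the distal tubule. The low ones were Scnn1g (16.7%, 14.8% and 10.2%) and Slc26a4 (58.6%, 14.3% and 34.7% over 7 CpGs).

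Of 8 measured endothelial, stromal and immune markers, 5 were methylated (62.5%, against 18% of all promoters and 31.0% and 53.7% of those with intermediate and low CpG content), with Col1a1 (fibrillar collagen) at 95.3%, 97.7% and 95.6% and Csf1r of macrophages at 92.5%, 92.5% and 92.7%. Those of the intermediate filament gene Vim (0%, 5.65% and 0.788%) and of N-cadherin, Cdh2 (1.71%, 5.41% and 1.11%), were unmethylated. Of 12 measured promoters of epithelial genes, 3 were unmethylated (25%, against 43.5% of all promoters). Another 7 were between (58.3%, against 38.5%) and 2 methylated (16.7%, against 18%), with a median of 38.0%. Among the highest was E-cadherin, Cdh1, the adhesion molecule of epithelia, methylated at 75.5%, 87.8% and 75.1% over 25 CpGs. Its CpG content was high. The tight junction gene Cldn4, also among the highest of the list, was at 56.7%, 70.4% and 71.1%.

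Among genes that write and read methylation, 4 of 12 measured promoters were unmethylated (33.3%, against 43.5% of all promoters) and 1 methylated (8.33%, against 18%). Hells, a remodelling helicase needed for DNA methylation, was the latter at 93.3%, 96.8% and 92.9% over 5 CpGs, whereas Mbd3 was at 1.13%, 3.77% and 0.809% and Uhrf1, which brings Dnmt1 to replicating DNA, at 15.8%, 22.3% and 21.7%. Of 31 measured tumour suppressors and oncogenes, 16 were unmethylated (51.6%, close to the 54.7% of high-CpG promoters), among them Brca1 (0.128%, 2.01% and 0.581%) and Tsc1 (0%, 2.5% and 0%), and 3 methylated (9.68%, against 9.77%). The methylated ones were Cdkn1c, Rassf1 (94.4%, 95.5% and 91.9% over 5 CpGs) and Dkk3 (90.7%, 84.4% and 94.7%), a secreted modulator of Wnt signalling. The Wnt inhibitors Sfrp1 (60.1%, 69.3% and 68.8%), Sfrp2 (66.8%, 80.1% and 74.6%) and Dkk1 (64.7%, 69.0% and 67.0%) lay between, and Wif1 was lower at 8.08%, 17.3% and 12.7%.

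**Figure D4:**
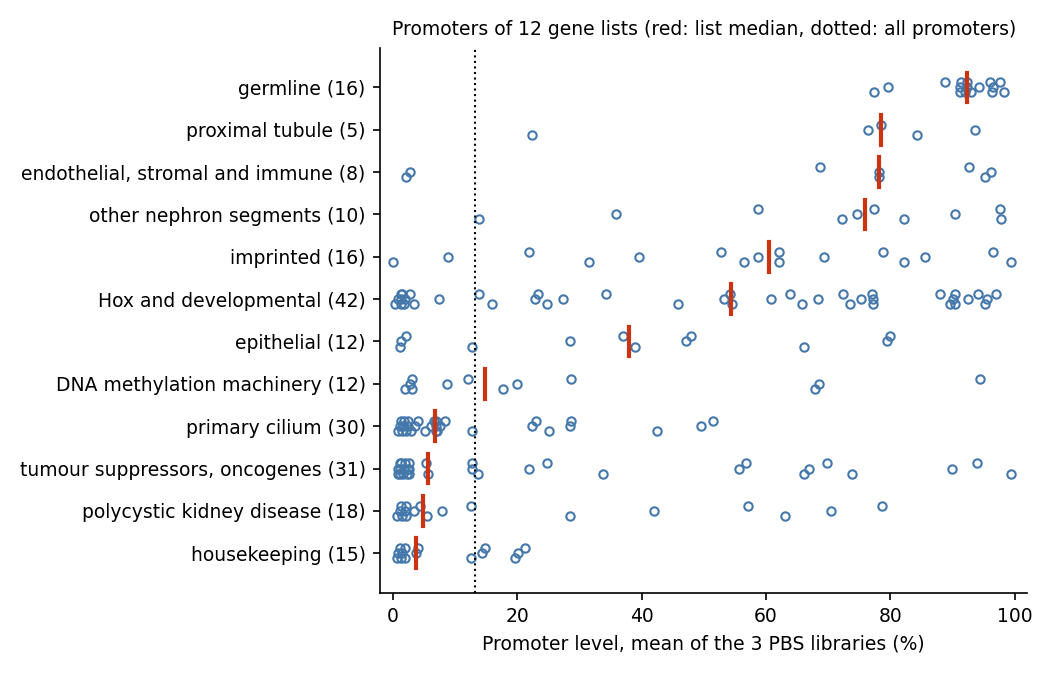
Promoter levels (horizontal axis, mean of the 3 PBS libraries, %) of the measured members of 12 gene lists (vertical axis, number measured in brackets); circles are genes, red bars list medians and the dotted line the median of all 12958 promoters, 13.2%. Housekeeping promoters end at 21.3% and germline promoters begin at 77.3%, while imprinted and Hox genes span nearly the whole axis.

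The 3 libraries were close to each other, with replicate 2 above the other pair. Pearson's r of CpG levels was 0.915 to 0.928 at 5 or more reads and 0.964 to 0.967 at 20 or more, across CpGs. The dispersion of the reads of any pair around a common level was 1.59 to 1.76 at 5 or more reads, where sampling alone gives about 1, so no pair was the same library listed again. Replicate 2 exceeded the mean of replicates 1 and 3 by 1.51 points over the shared CpGs, and by 4.60 points over all CpGs that each library listed. The excess was 1.26 points at intergenic CpGs, 2.19 at promoters, 2.50 at the densest CpGs and 4.62 at promoter CpGs on the X. It was smallest at the methylated end. Replicate 2 minus replicate 3 was 2.47 to 2.62 points where replicate 1 was under 50%, in groups from 0% upwards at 10 or more reads, and fell to 0.709 points where it was at 100%. Where replicate 1 had no methylated read, replicate 2 averaged 4.07% and replicate 3 1.55%. Where replicate 1 was fully methylated they averaged 96.2% and 95.5%. Replicate 2 was the highest of the 3 in 82.0% of the 5634 unmethylated promoters, 58.9% of the 4989 between and 44.4% of the 2335 methylated ones, and its median excess there was 2.20, 2.55 and 0.979 points. Mitochondrial CpGs moved with it: their reads were methylated at 2.76% in replicate 2 and at 0.290% and 0.280% in replicates 1 and 3. Replicate 2 is also the library with the fewest reads. The part of either in its excess was not tested.

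**Figure D5:**
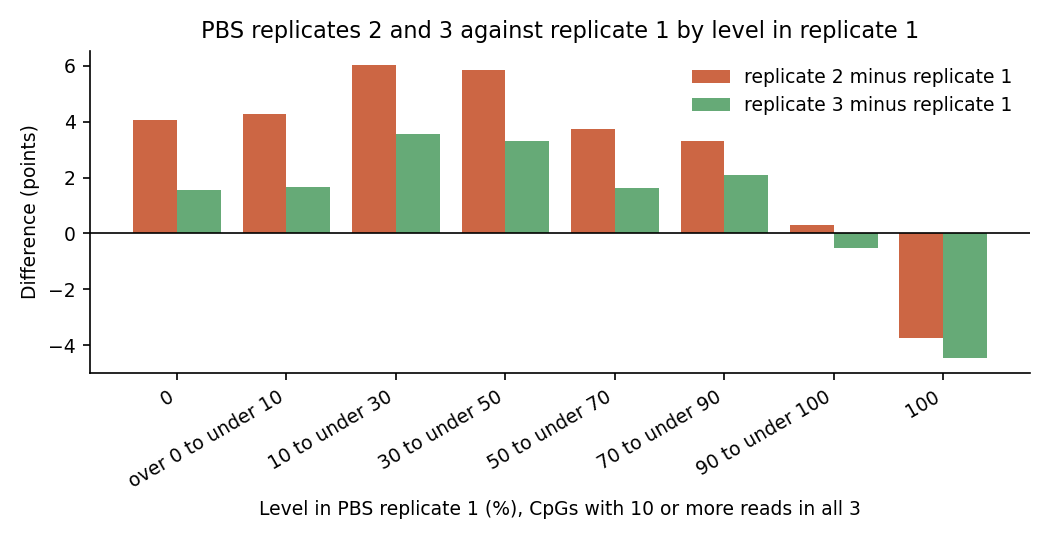
Mean difference of PBS replicates 2 and 3 from replicate 1 (vertical axis, points) for CpGs with 10 or more reads in all 3, grouped by their level in replicate 1 (horizontal axis, %). Both bars lean towards the middle because replicate 1 chose the groups; replicate 2 lies above replicate 3 in every group, by 2.52 points at 0% and 0.709 points at 100%.

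Single CpGs called as different among the libraries were few, and their share depended on depth. By a likelihood ratio test on the reads (2 degrees of freedom, Benjamini-Hochberg q under 0.01 over all CpGs, and a range of at least 35 points), 462 of 1117235 CpGs differed, or 0.0414%. The test compares these 3 libraries and not conditions, since its unit is the read. Replicate 2 was the highest in 240 of them, replicate 1 in 129 and replicate 3 in 93. Leaving replicate 2 out left 50 such CpGs, leaving replicate 3 out 103 and replicate 1 out 283, by tests with 1 library fewer. With the statistic divided by the dispersion over all CpGs, 1.65, 15 remained past the threshold. By the lowest depth of the 3 libraries, the called share was 0.0322% at 5 to 9 reads, 0.0454% at 10 to 19 and 0.0847% at 20 to 49. At 50 or more it was 0.0810%, with 8 of 9877 called, and so no higher than at 20 to 49. By annotation it was 0.0571% at intergenic CpGs, 0.0338% at promoters and 0.0219% at exons. The calls were scattered, with 417 of the 432 groups of calls within 500 bp of each other holding a single CpG.

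Promoters showed the same scale of spread. The median range over the 3 libraries was 2.78 points for unmethylated, 6.35 for between and 4.49 for methylated promoters, and 326 of 12958 had a range over 20 points. The same 3 levels set the classes, so an unmethylated promoter cannot have a range of 10 points or more. A promoter that varies across a limit counts as between, so the ranges of the classes cannot be compared. The 5 with the largest range and at least 10 CpGs were Tmem41a (0%, 31.2% and 86.0% in replicates 1, 2 and 3), Pcdh19 (17.6%, 42.9% and 74.1%), Ribc1 (20.3%, 75% and 41.1%), Casd1 (55.6%, 88.4% and 38.2%) and Sat1 (54.0%, 17.3% and 67.4%). Pcdh19, a protocadherin gene, Ribc1 and Sat1, which encodes a polyamine acetyltransferase, lie on the X. The 5 were chosen for their range, which is a description only.

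A small number of positions held a large share of the reads. The 0.1% of shared CpGs with the most reads (1117 CpGs, each with 1314 reads or more summed over the libraries) carried 30.7% of the reads of the shared set. A stretch of chromosome 2, chr2:98502421-98507467, alone held 21.3% in 84 CpGs, with levels by reads of 80.4%, 75.4% and 84.0%. CpGs are counted equally above, so these positions weigh little there. Weighting by reads instead shrank the difference of promoters from intergenic CpGs from -35.5 to -13.0 points, and to -34.3 points once the 0.1% were left out, an alternative chosen after seeing the data.

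As a closing reference, the 9 treated libraries were read at those shared CpGs that each listed. Their means lay between 40.6% and 44.4%, all below the 63.7% to 65.3% of the PBS libraries, a difference of 22.0 points (two-sided exact permutation test on library means, p = 0.00455, the smallest the design allows, 3 libraries against 9). The test takes libraries as independent, which the sources do not state, and pools the treatments into a single group. Aza replicates 1 and 2 stand apart, since they list 30.3% and 28.6% of the shared CpGs, repeat positions, and have levels with a Pearson's r of 0.00301 and 0.000473 with the PBS mean across CpGs, where the other 7 had 0.801 to 0.834. Without them the difference was 22.1 points (exact permutation test, p = 0.00833). In the other 7 libraries the order of the baseline held, with promoters at 23.8% to 25.8%, intergenic CpGs at 45.2% to 48.2%, introns at 47.0% to 50.7% and exons at 54.1% to 58.6%.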

How the data were processed

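RRBS libraries of PKD1-Het cells were analysed from the tables the authors deposited. Per the study's methods, reads of 100 bp in pairs were trimmed with Trim Galore 0.4.4, with 15 bp further removed, and aligned to mm9 with Bismark 0.20.1 and Bowtie2, the strands of each CpG were merged and CpGs with at least 5 reads kept. The deposited values are the percent of methylated reads, beside methylated and total reads, from which all levels were computed here. Reads were not marked by molecular identifiers, so PCR copies count.

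CpGs with 5 or more reads in all 3 PBS libraries were joined and counted equally, the mitochondrion apart. Of them 1472 on unplaced contigs and 136 at positions that are not CG in the reference have no annotation. Features came from GENCODE vM1 on mm9 (protein-coding, lincRNA and processed transcript genes), and each gene's promoter from its transcript with the longest coding sequence. Levels are given per library with mean ± SD. CpGs were compared among libraries by a likelihood ratio test, tested on simulated data. Unchanged CpGs in the simulation varied by sampling only, whereas the real reads had a dispersion of 1.65. The simulation therefore cannot give the rate of false calls in these libraries. Intervals are 95% Wilson intervals, which take reads as independent and cover counting error only. The limit given for Hsp90ab1, with a count of 0, is instead 3 divided by the number of reads, as a percent. Alternatives changed the depth, the CpG set, the weighting, the promoter, the density window and the libraries. Figures were drawn with matplotlib 3.10.9, tables handled with pandas 2.3.3, and statistics computed with scipy 1.17.1 and numpy 2.4.6 under Python 3.11.15.

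The libraries, gene lists and rules were chosen with earlier results of these data known. Named genes are Pkd1, Pkd2 and Pkhd1, up to 3 members of each list with the highest and up to 3 with the lowest promoter levels, and the 5 promoters with the largest range. Other genes named were chosen after their values were seen, for their role. Some genes that the rule names are not reported here, though the counts and medians of their lists include them. Repeats, histone marks and expression were not analysed here.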

Additional observations from a re-analysis of the deposited data

Results flagged for a closer look

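Mitochondrial CpGs, which enter no value of the report's shared set, held methylated reads in every PBS library. In replicate 1, 296 of 101935 reads over 223 CpGs were methylated, or 0.290% (95% Wilson interval 0.259 to 0.325%). In replicate 2 the number was 2508 of 90758 over 225 CpGs, or 2.76% (2.66 to 2.87%), and in replicate 3 it was 455 of 162574 over 228 CpGs, or 0.280% (0.255 to 0.307%). They are listed here because all 3 lie above the level that a count of 0 would allow, and the interval of replicate 2 lies above those of the other pair. The intervals cover counting error only and take reads as independent. A read counts at each CpG it covers and PCR copies count, so they are too narrow. Incomplete conversion and nuclear copies of mitochondrial sequence were not tested.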

How the results depend on the processing

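Of the values recomputed under another setting, 73 were classed as kept, 37 moved further and 0 changed sign. Kept meant within the spread between libraries, or for counts within 1.5 times. For the PBS difference from treated libraries it meant only the same sign and the same outcome of the permutation test. At 10 and 20 or more reads the mean level was 66.2% and 70.9%, the share of CpGs under 10% 18.1% and 13.3%, and that at 90% or more 45.6% and 49.7%. In the same order, promoter minus intergenic was -35.0 and -28.6 points, intron minus intergenic 3.53 and 4.22, and densest minus sparsest -33.9 and -24.0. Weighted by reads, the mean was 69.8%, promoter minus intergenic -13.0 (-34.3 without the 0.1% of CpGs with the most reads, added after seeing the data), exon minus intron 5.28, intron minus intergenic 6.0 and densest minus sparsest -34.3. Over every CpG listed in each library these 4 differences were -30.5, 6.55, 7.28 and -31.8, and the excess of replicate 2 was 4.60 points. On autosomes, promoter minus intergenic was -36.4, intron minus intergenic 3.93 and densest minus sparsest -37.5. With promoters within 500 bp of a start, promoter minus intergenic was -40.3 and exon minus intron 6.25, and with CpGs counted within 500 bp densest minus sparsest was -35.2. At 10 or more reads 3416 of 7289 promoters were unmethylated (46.9%) and 1342 methylated (18.4%), and with 10 or more CpGs 1452 of 9989 were methylated (14.5%), fewer promoters being measured in each. CpGs that differed among libraries numbered 15 after division by the dispersion, 751 with no minimum range, and 50 to 283 when a library was left out. The causes of these shifts were otherwise not tested. With the replicate number as a block, the PBS difference of 22.0 points had an exact permutation p = 0.0156, the smallest of 64 arrangements. Leaving out each library gave 21.5 to 22.3 points. Depth limits single CpGs, with medians of 10 to 19 reads.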
